A study of Mus musculus with 4 samples.

Results

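The genes described here are 39 listed genes of the extracellular matrix and of the liver cells that make it: fibrillar, basement membrane and filament-forming collagens, laminins and nidogen, elastic fibre proteins, glycoproteins, proteoglycans, crosslinking enzymes, and receptors and markers of the hepatic stellate cell. Every probe set whose platform annotation named exactly 1 of these symbols was taken, which gave 84 of 45037 probe sets and 37 of the 39 genes. Fbn1 and Loxl2 had no such probe set. Of the 84 probe sets, 63 passed the filter on dim signals, and all 37 genes kept at least 1 of them. RNA came from C57BL/6J mouse liver, called mature in the labels, and was measured on Affymetrix arrays 48 h after surgery. The sham group (a sham operation) and the hepatectomy group (partial hepatectomy, after which the remnant left by the surgeon regrows) held 2 arrays each. The design text calls the pairs biological duplicates, and p-values reflect only the spread among these arrays. The sources used here do not give the number of animals behind an array, or their sex and age.

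The liver lobule has little interstitial matrix. Collagens of types I, III and V form fibrils around portal tracts and central veins, type IV collagen forms the open network of basement membranes, and fibronectin fills much of the space between hepatocytes and the sinusoidal endothelium. Hepatic stellate cells store retinoids in that space and, when activated, lose their retinoid stores and produce fibrillar collagen and smooth muscle actin. Portal fibroblasts, vessel walls and the endothelium make matrix as well. In whole liver RNA, fewer cells of a type and less RNA per cell cannot be told apart.

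The signals of the albumin, transthyretin, apolipoprotein A1 and Cyp2e1 probe sets summed to between 63448 and 74169 on the 4 arrays, so liver RNA was present on all of them. Hepatectomy replicate 1 stood apart. Of 7 listed adrenal cortex genes 6 had a probe set, and their signals summed to 207 and 175 in sham liver, 19571 on hepatectomy replicate 1 and 203 on hepatectomy replicate 2. Of 6 adipocyte genes 4 had a probe set, with sums of 150 and 66.7 against 2287 and 277. Adipoq, the fat cell hormone adiponectin, read 4.02 and 6.29 in sham liver, 574 on hepatectomy replicate 1 and 56.3 on hepatectomy replicate 2. The called genes are therefore given with and without hepatectomy replicate 1; without it, 1 array stands for its group and is assumed to vary like the others. The arrays are named sham and regenerating liver where both values of a group follow, in the order of replicates 1 and 2.

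Stretches of promoter are shown for 3 of the collagen and glycoprotein genes that were higher after hepatectomy, because these members moved together. Of the 39 genes 26 had an annotated start among the RefSeq promoters (build GRCm38.p6). Each stretch is the 150 bases before the start, 5′ to 3′ on the gene's strand, at chr6:4505468-4505617 (plus strand) for Col1a2, chr1:45311388-45311537 (plus strand) for Col3a1 and chr11:55420081-55420230 (minus strand) for Sparc. The pentamer CCAAT, or its reverse complement ATTGG, is in capitals.
Col1a2: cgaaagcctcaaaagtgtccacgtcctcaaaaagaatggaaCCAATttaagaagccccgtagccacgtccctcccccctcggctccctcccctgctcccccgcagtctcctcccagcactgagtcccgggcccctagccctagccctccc
Col3a1: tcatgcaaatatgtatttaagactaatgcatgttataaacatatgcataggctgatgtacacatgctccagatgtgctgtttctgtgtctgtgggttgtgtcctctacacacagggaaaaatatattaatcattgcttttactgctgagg
Sparc: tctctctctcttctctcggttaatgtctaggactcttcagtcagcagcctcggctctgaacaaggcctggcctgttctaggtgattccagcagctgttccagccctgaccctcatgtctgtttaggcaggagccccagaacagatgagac
CCAAT lay 109 bases before the Col1a2 start and was in neither of the other stretches. Over 250 bases before the start and on both strands, CCAAT was found before 10 of 30 starts of the listed genes (33.3%) and before 33.8% of 32851 starts of all genes. GGGCGG (reverse complement CCGCCC) was found before 18 of the 30 listed starts and 32.7% of all, TATAAA (reverse complement TTTATA) before 6 of 30 and 12.4%, and CAGAC (reverse complement GTCTG) before 15 of 30 and 42.2%. None of the 4 motifs contains another. The 30 starts belong to 26 genes, so some genes enter with more than 1 start. The windows of the Tnc starts overlap, and the same TATAAA and the same GGGCGG were counted at both. A match describes the letters, not a bound site. Col4a1 and Col4a2 are transcribed in opposite directions from starts 21 bases apart on chromosome 8. CCAAT lay 145 bases before the first and 32 bases before the second. As annotated, these genes overlap at their starts, so the bases before each start lie on the side into which the other gene is transcribed.

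Of the 37 measured genes 7 rose and 1 fell after hepatectomy (limma, Benjamini-Hochberg adjusted over 27022 probe sets, called at an adjusted p under 0.05). Over all 12560 genes tested, 3.57% were called higher and 1.09% lower. The genes that rose were the fibrillar collagens Col1a1, Col1a2, Col3a1 and Col5a2, the basement membrane collagens Col4a1 and Col4a2, and Sparc. The gene that fell was Ecm1. The median log2 fold change of the 37 genes was 0.55, against 0.02 over all genes tested, and 0.33 against 0.01 without hepatectomy replicate 1. Counted over probe sets, 12 of 63 were called higher and 1 lower, against 2.51% and 0.877% of all probe sets.

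The 2 hepatectomy arrays both lay above the 2 sham arrays for 19 of the 37 genes and both below for 5, against 28.1% and 23.2% of all genes. The arrays of a group also differed in one direction over the list: sham replicate 2 was above sham replicate 1 for 33 of 37 genes (54.1% of all genes), and hepatectomy replicate 1 above replicate 2 for 29 of 37 (53.4% of all genes). The lowest member signals therefore came mostly from sham replicate 1 and the highest from hepatectomy replicate 1. Without hepatectomy replicate 1, 6 of 36 genes were called higher and 1 lower, with 3.51% and 1.48% of all genes called. Without sham replicate 1, 2 were called, Col1a1 and Ecm1, and without sham replicate 2, 5 were. With a variance model that had no mean-variance trend, 0 of the 37 were called and 14 had an unadjusted p under 0.05.

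**Figure D1:**
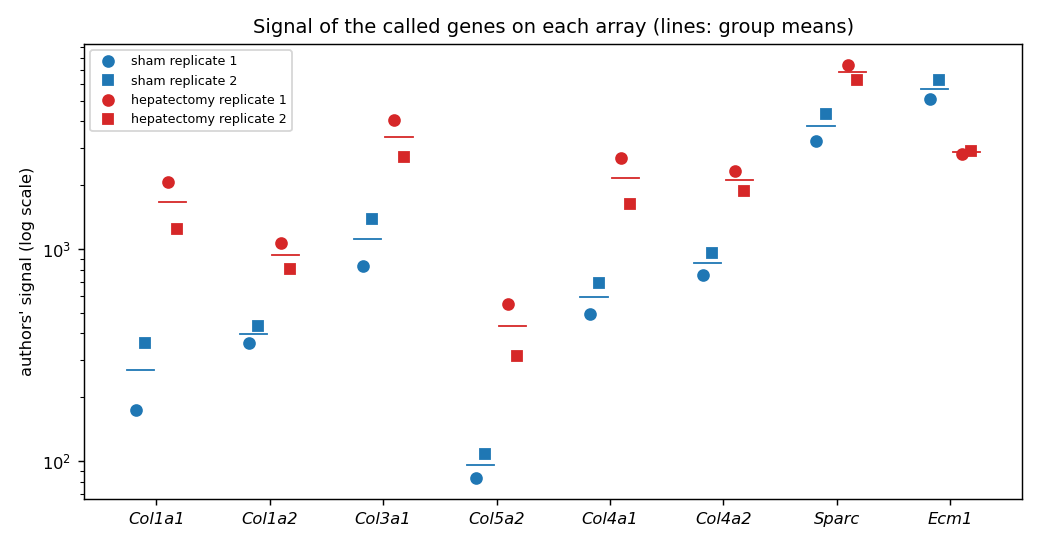
Signal of the 8 called genes on each array, as deposited, on a log scale. Blue marks sham arrays, red marks hepatectomy arrays, circles replicate 1, squares replicate 2, and lines the group means. For 7 genes both red points lie above both blue ones; for Ecm1 both lie below.

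Fibrillar collagens rose in 4 of 5 genes, with a class median log2 fold change of 1.62, or 1.33 without hepatectomy replicate 1. Col1a1, the major chain of type I collagen, had signals of 175 and 361 in sham liver against 2079 and 1248 in regenerating liver. Both hepatectomy signals exceeded both sham signals by more than the spread within either group. The log2 fold change was 2.64 ± 0.36 (SE, n = 2 arrays per group; limma adjusted p = 0.00826), or 6.22-fold. Its second probe set read 127 and 213 against 825 and 668 and was called too (2.11 ± 0.29, limma adjusted p = 0.00796). Without hepatectomy replicate 1 the value was 2.27 (limma adjusted p = 0.00245). Col1a1 was the only listed gene that kept its call without each of the 4 arrays in turn.

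Col1a2, the partner chain of Col1a1 in the type I trimer, read 361 and 431 in sham liver against 1067 and 808 in regenerating liver. It rose by 1.22 ± 0.22 on the log2 scale (SE; limma adjusted p = 0.0265), and a second probe set, reading 116 and 171 against 692 and 407, by 1.85 ± 0.32. Another Col1a2 probe set was too dim to test. Col3a1, the homotrimeric collagen of reticular fibres, read 833 and 1390 against 4057 and 2727. It rose by 1.62 ± 0.27 (limma adjusted p = 0.0193), and its other probe set by 2.06 ± 0.44 (limma adjusted p = 0.0492). Without hepatectomy replicate 1 the first was still called (1.33, limma adjusted p = 0.0118) and the other was not (1.52, limma adjusted p = 0.066). The groups did not overlap for either chain. The call of Col1a2 was lost without sham replicate 1 (limma adjusted p = 0.215) and without sham replicate 2 (0.0944), and that of Col3a1 without sham replicate 1 (0.0895).

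Type V collagen nucleates type I fibrils. Its Col5a2 chain read 82.9 and 108 in sham liver against 550 and 315 in regenerating liver, a rise of 2.04 ± 0.33 on the log2 scale (SE; limma adjusted p = 0.0154). The dimmer Col5a2 probe set read 16.8 and 48.8 against 78.6 and 82.7 and did not pass (1.22 ± 0.45, limma adjusted p = 0.222). Col5a2 lost its call without sham replicate 1 (0.11) and without sham replicate 2 (0.0502). Col5a1 did not pass in any of its 3 probe sets, which had log2 fold changes of 0.80, 1.29 and 1.30 (limma adjusted p = 0.327, 0.0748 and 0.127). All 3 had both hepatectomy signals above both sham signals. Col3a1 and Col5a2 are next to each other among protein-coding genes in the RefSeq annotation.

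Of 4 basement membrane collagens 2 rose. They were Col4a1 and Col4a2, the chains of the widespread type IV trimer, while the multiplexins Col15a1 and Col18a1, whose C-terminal ends carry endostatin-like domains, did not pass. Col4a1 read 494 and 695 in sham liver against 2680 and 1635 in regenerating liver. It rose by 1.82 ± 0.27 on the log2 scale (SE; limma adjusted p = 0.0114), and its second probe set by 1.58 ± 0.24 (limma adjusted p = 0.0119). Col4a2 read 757 and 953 against 2334 and 1890 and rose by 1.30 ± 0.19 (limma adjusted p = 0.0115). Both genes were called without hepatectomy replicate 1 (1.47 and 1.15) and not without sham replicate 1 (limma adjusted p = 0.0788 and 0.0949).

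Col15a1 read 83.0 and 133 in sham liver against 172 and 287 in regenerating liver (1.03 ± 0.35, limma adjusted p = 0.191), and was 1 of 8 listed genes with a higher signal on hepatectomy replicate 2 than on replicate 1. Col18a1, which hepatocytes themselves express, read 7157 and 6322 against 5579 and 6189. Its difference was -0.19 with a 95% interval from -0.48 to 0.09, and that of its second probe set was -0.17. The interval of Col18a1 lies wholly below that of Col4a1 (1.20 to 2.45); the difference between the genes was not tested.

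**Figure D2:**
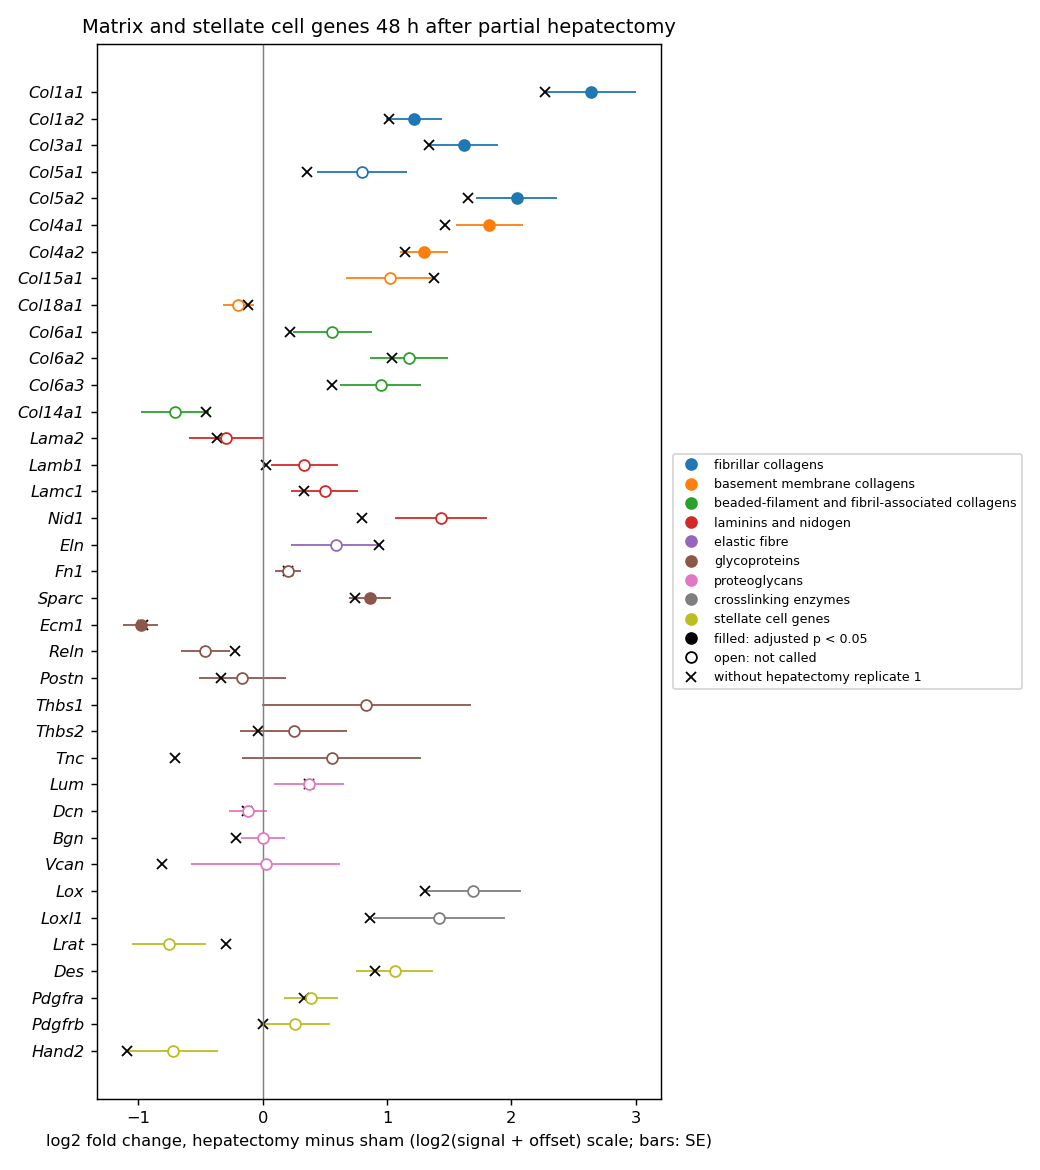
Log2 fold change of each of the 37 genes, hepatectomy minus sham, with its standard error as a bar and colour by class. Filled points passed an adjusted p of 0.05, open points did not, and crosses give the value without hepatectomy replicate 1. Values run from -0.98 for Ecm1 to 2.64 for Col1a1.

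None of the 4 beaded-filament and fibril-associated collagens was called by limma, and 3 had an unadjusted p under 0.05. Type VI collagen forms beaded microfilaments near cells from 3 chains. Col6a1 read 298 and 490 in sham liver against 721 and 445 in regenerating liver, so its groups overlapped (0.56 ± 0.32, limma adjusted p = 0.439). Col6a2 read 101 and 177 against 347 and 284 (1.18 ± 0.32, limma adjusted p = 0.0991). Col6a3 read 132 and 181 against 405 and 232 (0.95 ± 0.33, limma adjusted p = 0.192). Its value was 1.34 without hepatectomy replicate 2, where hepatectomy replicate 1, with its adrenal and fat signals, stood alone for the group. Col6a2 and Col6a3 had groups that did not overlap.

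Col14a1, a collagen that binds the surface of fibrils and is expressed in quiescent stellate cells and fibroblasts, lay on the other side. It read 550.5 and 827 in sham liver against 346 and 489 in regenerating liver, with a log2 difference of -0.70 ± 0.27 (SE; limma adjusted p = 0.247). Its second probe set read 225 and 321 against 117 and 88.9, a difference of -1.33 ± 0.30 that missed the threshold narrowly (limma adjusted p = 0.0565) and passed it without hepatectomy replicate 1 (-1.51, limma adjusted p = 0.026). The groups overlapped in neither probe set. Of the 13 collagen genes 11 had a positive value, Col14a1 and Col18a1 being the exceptions, and 6 were called.

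Laminins, the cross-shaped trimers of basement membranes, and nidogen, which links them to type IV collagen, had no called gene among 4 (limma; 1 had an unadjusted p under 0.05). Nid1 read 888 and 1188 in sham liver against 4346 and 1790 in regenerating liver (1.43 ± 0.37, limma adjusted p = 0.0856). Its hepatectomy signals were far apart: the value was 0.80 without hepatectomy replicate 1 and 2.07 without replicate 2. The latter rests on hepatectomy replicate 1 alone, the array with the adrenal and fat signals. The laminin chains stayed nearer to 0, with Lamb1 at 0.33 ± 0.27, Lamc1 at 0.50 ± 0.27 and Lama2, the chain of muscle and mesenchymal laminin, at -0.29 ± 0.30. In these probe sets Lamb1 and Lama2 had overlapping groups. Another Lamb1 probe set read 151 and 170 against 373 and 173, without overlap (0.64 ± 0.36, limma adjusted p = 0.439). The dimmest tested Lamb1 probe set gave 0.42 ± 0.41, with overlap. Elastin, Eln, the core of elastic fibres in vessel walls, read 67.7 and 106 against 102 and 171, also overlapping (0.59 ± 0.37).

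Among 8 glycoproteins Sparc rose and Ecm1 fell. Sparc, a collagen-binding matricellular protein, read 3240 and 4352 in sham liver against 7416 and 6294 in regenerating liver. The rise was 0.86 ± 0.17 on the log2 scale (SE; limma adjusted p = 0.0339), and 1.20 ± 0.23 in a second probe set that read 1119 and 1813 against 3465 and 3098 (limma adjusted p = 0.0305). The call of the first probe set was lost without hepatectomy replicate 1 (0.74, limma adjusted p = 0.0617), without sham replicate 1 (0.65, limma adjusted p = 0.144) and with median centring of the arrays (0.78, limma adjusted p = 0.0545).

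Ecm1, a secreted glycoprotein made by hepatocytes and stellate cells that holds latent transforming growth factor beta inactive, read 5131 and 6273 in sham liver against 2824 and 2916 in regenerating liver. The hepatectomy arrays nearly coincided and lay below both sham arrays. The decrease was 1.97-fold (log2 fold change -0.98 ± 0.14, limma adjusted p = 0.0106). It held without hepatectomy replicate 1 (-0.96, limma adjusted p = 0.0100) and without sham replicate 1 (limma adjusted p = 0.0229), and was lost without sham replicate 2 (-0.84, limma adjusted p = 0.0661). Ecm1 was represented by a single probe set.

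Fn1, fibronectin, a hepatocyte product that also circulates in plasma, read 9582 and 8872 in sham liver against 10672 and 10623 in regenerating liver. Its log2 difference was 0.21 with a 95% interval from -0.03 to 0.45 (limma adjusted p = 0.379). A dimmer Fn1 probe set gave 0.74 ± 0.40, with overlapping groups (limma adjusted p = 0.412). Reln, the secreted glycoprotein reelin that marks stellate cells in liver, read 1807 and 2111 against 1200 and 1672, a difference of -0.46 ± 0.20 (limma adjusted p = 0.299). The matricellular genes were dim or split between arrays. Thbs1, thrombospondin 1, read 20.2 and 21.5 in sham liver, 140 on hepatectomy replicate 1 and 9.95 on replicate 2. Tnc, tenascin C, read 33.5 and 42.4 against 154 and 19.8. Both were high on hepatectomy replicate 1 alone, and without it the value of Tnc turned to -0.71. Postn (-0.16 ± 0.35) and Thbs2 (0.25 ± 0.43) had overlapping groups. A dimmer Thbs2 probe set read 16.5 and 33.9 against 35.4 and 39.8, without overlap (0.50 ± 0.43, limma adjusted p = 0.637).

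Of the small leucine-rich proteoglycans, which coat collagen fibrils and set their diameter, Dcn and Bgn gave values near 0 in their brightest probe sets. Dcn, decorin, read 2811 and 3478 in sham liver against 2896 and 2868 in regenerating liver, a log2 difference of -0.12 with a 95% interval from -0.47 to 0.23. Its dimmer probe set read 101 and 83.5 against 78.3 and 66.1, without overlap (-0.32 ± 0.32, limma adjusted p = 0.694). Bgn, biglycan, read 2961 and 2715 against 3320 and 2439 (0.01, interval from -0.40 to 0.41), and its other probe sets gave 0.13 and -0.03. The upper bounds of Dcn and Bgn lie below the Col1a1 estimate of 2.64. Lum, lumican, read 187 and 301 against 308 and 311 (0.37 ± 0.28, 95% interval from -0.28 to 1.02). Its sham arrays differed more from each other than sham replicate 2 did from either hepatectomy array. Vcan, the large proteoglycan versican, had 8 probe sets, of which 2 passed the filter: one gave 0.02 ± 0.60, and the other read 16.7 and 5.94 against 79.6 and 35.8 (limma adjusted p = 0.133), with both sham signals under 20.4, the highest signal of 27 bacterial control probe sets. None of the 4 genes was called by limma, and 0 had an unadjusted p under 0.05.

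Lysyl oxidases crosslink collagen and elastin. Lox read 27.4 and 31.2 in sham liver against 152 and 85.0 in regenerating liver. Its log2 fold change of 1.70 ± 0.38 just missed the threshold (limma adjusted p = 0.0573) and passed after median centring (1.61, limma adjusted p = 0.0251). Loxl1 read 29.8 and 90.4 against 234 and 104 (1.42 ± 0.53, limma adjusted p = 0.227). In these probe sets both genes had hepatectomy signals above both sham signals, on a dim scale. A second tested Loxl1 probe set read 20.5 and 24.7 against 68.5 and 15.1, so its groups overlapped (0.46 ± 0.58, limma adjusted p = 0.767).

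**Figure D3:**
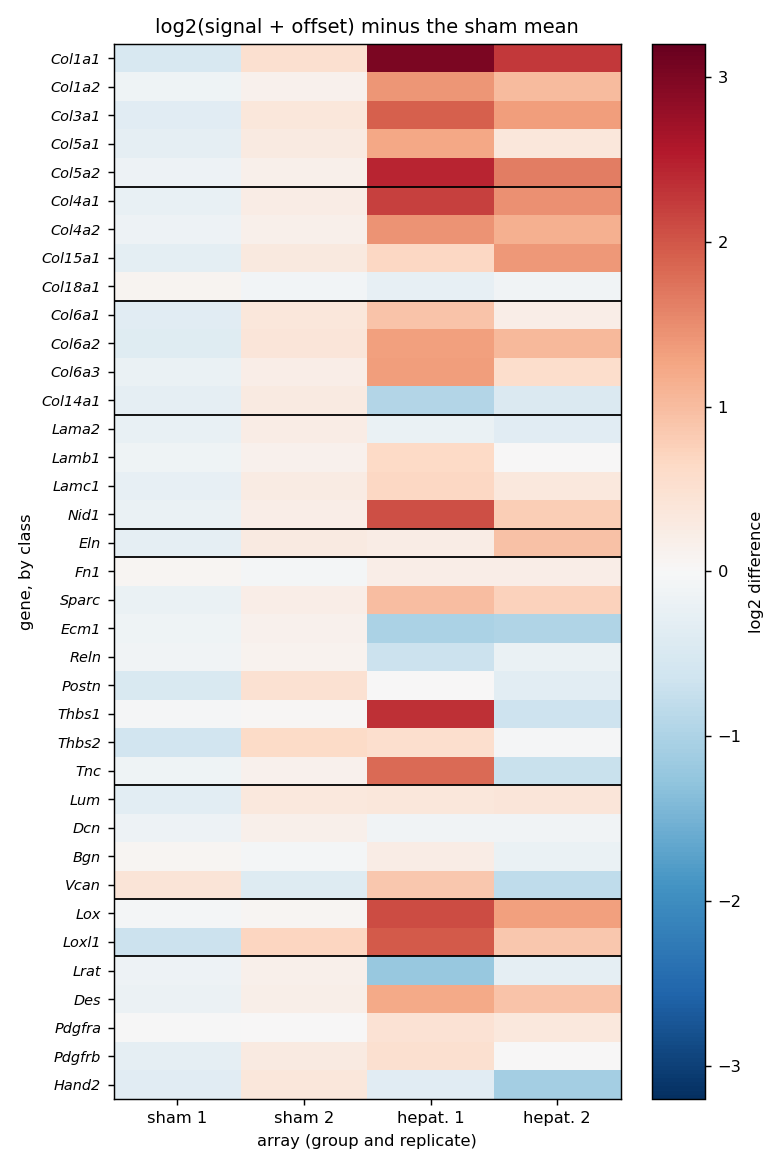
Log2(signal + offset) of each of the 37 genes on each array minus the mean of the sham arrays, with black lines between classes. Red cells of the fibrillar and type IV collagens fill both hepatectomy columns, while Thbs1, Tnc and Vcan are red in hepatectomy replicate 1 and blue in replicate 2.

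Genes of the stellate cell itself gave values on both sides of 0. Lrat, which esterifies retinol for storage, read 1010 and 1257 in sham liver against 482 and 919 in regenerating liver. Its log2 difference was -0.75 ± 0.30 (limma adjusted p = 0.258), and -0.85 ± 0.29 in the second probe set. It was -0.29 without hepatectomy replicate 1 and -1.21 without replicate 2, where only the array with the adrenal and fat signals was left. Hand2, a transcription factor of quiescent stellate cells, read 149 and 249 against 149 and 85.8 (-0.72 ± 0.37). Its second tested probe set read 42.9 and 69.8 against 58.7 and 46.8 (-0.06 ± 0.38), and the groups overlapped in both. Des, the intermediate filament desmin of stellate and muscle cells, read 62.1 and 82.9 against 179 and 142 (1.06 ± 0.31, limma adjusted p = 0.125). The receptors for platelet-derived growth factor gave 0.39 ± 0.22 for Pdgfra and 0.26 ± 0.28 for Pdgfrb. The second tested Pdgfra probe set had the opposite sign and overlapping groups (-0.38 ± 0.50, limma adjusted p = 0.776), while that of Pdgfrb was positive (0.38 ± 0.29). None of these 5 genes was called by limma, and 2 had an unadjusted p under 0.05.

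Over a list of 10 stellate cell markers, 5 of which are among the genes above, 9 had a probe set and none was called by limma (5 had an unadjusted p under 0.05). Their signals summed to 7271 and 9948 in sham liver against 5850 and 6732 in regenerating liver, so the groups did not overlap. The sum is set by the brighter genes: 5 of the 9 had negative values and 4 positive ones, with a median of -0.46. The lowest was Colec11, a collectin of stellate cells, which read 1698 and 2760 against 885 and 1249 (-1.04, limma adjusted p = 0.0834), and the highest was Des at 1.06. Smooth muscle markers lay the other way: the 5 genes summed to 465 and 597 against 1397 and 1474. Most of each sum was Acta2, at 290 and 403 against 1084 and 1036. All 4 tested had positive values and 1, Acta2, rose, where 3.57% of all genes were called higher. Portal fibroblast markers summed to 916 and 1066 against 1870 and 1609. Thy1 had a negative value (-0.33) and the others positive ones. The brightest of the 6 made up most of each sum and was the only 1 that rose. It was Gas6, a ligand of Axl family receptors (563 and 643 against 1291 and 1116; limma adjusted p = 0.0316), whose call was lost without hepatectomy replicate 1 (limma adjusted p = 0.0507). Sinusoidal endothelial markers summed to 12244 and 13068 against 9298 and 10228, with 0 of 8 called by limma (3 had an unadjusted p under 0.05). Mesothelial markers, from the cells that line the liver surface, summed to 261 and 396 against 486 and 436. Of these, 0 of 5 were called by limma (1 had an unadjusted p under 0.05), and Gpm6a had overlapping groups. Bile duct markers summed to 457 and 526 against 1249 and 737. Here 0 of 4 were called by limma (3 had an unadjusted p under 0.05), and Epcam had overlapping groups. Kupffer cell markers, of the resident macrophages, summed to 10368 and 10658 against 12498 and 12871, but 4 of the 6 had negative values and the list median was -0.089. Marco, a scavenger receptor, was the 1 that rose (241 and 172 against 3194 and 1670; 3.45, limma adjusted p = 0.00145), and Clec4f had the lowest value (-0.58, limma adjusted p = 0.25). The part of these cell types in the collagen values was not tested.

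**Figure D4:**
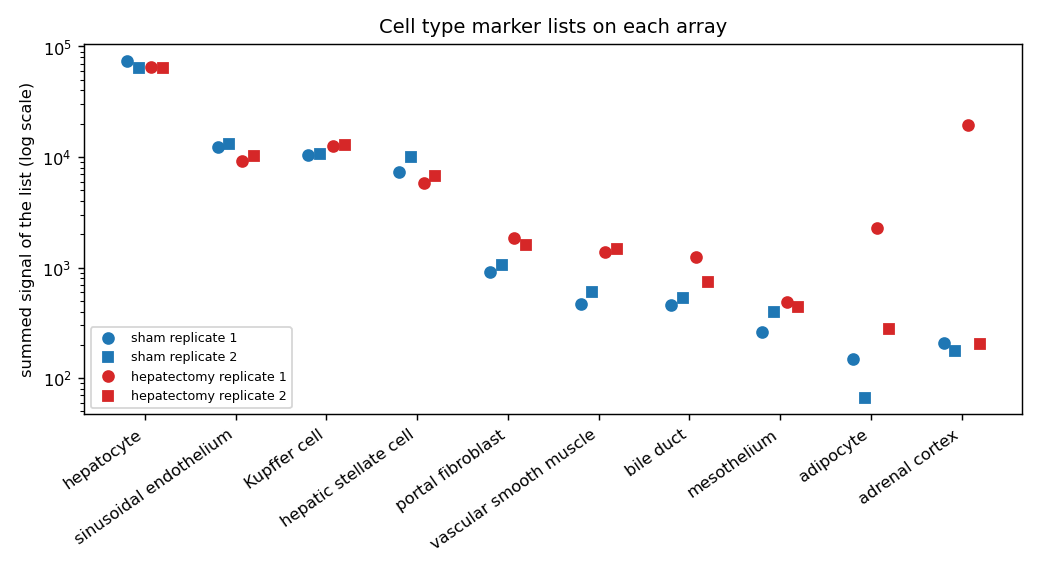
Summed signal of 10 cell type marker lists on each array, on a log scale, with sham arrays in blue, hepatectomy arrays in red, circles for replicate 1 and squares for replicate 2. The adrenal cortex list reads 19571 on hepatectomy replicate 1 and between 175 and 207 on the other arrays.

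The adrenal and fat signals move with hepatectomy replicate 1 and with the members that were highest there. Without that array, 2 adrenal genes passed the filter on dim signals, Cyp21a1 at -0.080 and Star at 0.27. The 6 collagens called over 4 arrays had log2 fold changes from 1.02 to 2.27 on hepatectomy replicate 2 against the sham pair. Among fat markers on hepatectomy replicate 2, Adipoq read 56.3 and Lep, leptin, 22.6 against 2.89 and 1.97 in sham liver, while Retn, resistin, read 13.8 against 13.0 and 19.1. Cidec was the only fat marker that passed the filter without hepatectomy replicate 1 (1.24, limma adjusted p = 0.267). The part of adrenal and fat RNA in the collagen values was not tested.

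Beyond the listed genes, 4 companion lists of the same pathway held 181 genes, of which 149 were tested. Of these 6 rose and 1 fell, with a median log2 fold change of 0.15. These shares are near the 3.57% and 1.09% of all genes, so the counts are no result about the lists. In collagen processing 1 of 26 rose: Serpinh1, the chaperone Hsp47 that binds procollagen in the endoplasmic reticulum, read 180 and 305 in sham liver against 814 and 568 in regenerating liver (1.50 ± 0.30, limma adjusted p = 0.0396). Its call was lost without hepatectomy replicate 1 (limma adjusted p = 0.0576) and without sham replicate 1 (0.256). Among signalling and contractile genes 3 of 32 rose. Acta2, the smooth muscle actin of activated stellate cells and vessel walls, read 290 and 403 against 1084 and 1036 (1.61 ± 0.22, limma adjusted p = 0.00834), and Tagln, the actin-binding protein transgelin, read 350 and 420 against 1188 and 1008 (1.49 ± 0.21, limma adjusted p = 0.00827). Both were called without hepatectomy replicate 1 (1.57 and 1.37) and lost without sham replicate 1 (limma adjusted p = 0.0734 and 0.0818). Tgm2, a transglutaminase that crosslinks matrix proteins, rose by 0.79 ± 0.15 and lost its call without any 1 of sham replicate 1 (limma adjusted p = 0.147), sham replicate 2 (0.0612) or hepatectomy replicate 1 (0.0736).

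Of 62 further matrix genes, 2 rose and 1 fell, again near the 3.57% and 1.09% of all genes. Emilin1, a glycoprotein of elastic fibres, read 148 and 196 in sham liver against 508 and 474 in regenerating liver (1.48 ± 0.25, limma adjusted p = 0.018). Spon2, a secreted F-spondin family protein, read 15.5 and 25.2 against 265 and 114 (2.68 ± 0.45, limma adjusted p = 0.0189). Col27a1, a fibrillar collagen known from cartilage, fell from 633 and 687 to 114 and 244 (-1.92 ± 0.34, limma adjusted p = 0.023). These 3 kept their calls without hepatectomy replicate 1 (1.43, 2.10 and -1.40) and lost them without sham replicate 1 (limma adjusted p from 0.115 to 0.15) and without sham replicate 2 (from 0.0536 to 0.128). Among integrins and other matrix receptors 0 of 29 were called by limma, and 4 had an unadjusted p under 0.05.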

How the data were processed

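Total RNA of mouse liver was biotin-labelled and hybridised to Affymetrix arrays. The deposited values are intensities on a linear scale, 1 per probe set and array, made by the authors with GCOS 1.4, per the submitters' processing notes. After trimming 2% at each end the mean was 500 on every array, so the arrays had been scaled to a common mean. Medians ran from 46.4 to 57.5. The sources used here give no detection calls, scan dates or software settings, and no batch was tested. The number of arrays limits the precision: the median standard error of the listed genes was 0.30.

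Of 45101 probe sets, 64 controls were left out. Of the other 45037, 34945 had 1 symbol in the platform annotation, 932 several and 9160 none. Signals plus an offset of 8.57 (the 20th percentile) were put on the log2 scale, which shrinks the fold changes of dim genes. The dimmest were dropped (mean below 5.09, the 40th percentile), and 27022 stayed. The group difference was fitted in R 4.3.3 by limma 3.58.1 (lmFit, then eBayes with trend; residual degrees of freedom 2, prior 6.02). Tests were two-sided, with p-values adjusted by Benjamini-Hochberg across the 27022. The code was tested on simulated data. A gene was represented by its tested probe set with the highest mean. Named genes were all members, with up to 4 called genes of each companion list and marker genes of the marker lists; Colec11, Marco and Clec4f were chosen from their lists after their values were seen. Members, lists and rules were chosen with earlier results of these data known. Alternatives changed scaling, offset, filter, variance model, probe set choice, replicate block and arrays.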

Additional observations from a re-analysis of the deposited data

How the results depend on the processing

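Over 15 alternatives the 8 called genes kept their direction, and 2 settings ended nearly every call. Over 4 arrays 916 probe sets in all, 13 listed probe sets, 8 listed genes and 7 companion genes were called by limma. Without the filter on dim probe sets, more probe sets entered both the fit and the adjustment, and their parts were not tested. These counts were then 308, 2, 1 and 2, the 1 listed gene being Col4a2. Without a mean-variance trend they were 258, 0, 0 and 0, with 26 listed probe sets, 14 listed genes and 29 companion genes at an unadjusted p under 0.05; the cause was not tested. Averaging the probe sets of each gene left 5 listed genes called, Col3a1, Col5a2 and Sparc being lost.

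Leaving out 1 array gave from 341 to 2012 probe sets in all, from 3 to 22 listed probe sets, from 2 to 15 listed genes and from 0 to 23 companion genes (24 of the latter had an unadjusted p under 0.05 where 0 were called, without sham replicate 1). The lowest counts came without sham replicate 1 and the highest without hepatectomy replicate 2. The labels number the arrays 1 and 2 in each group, and nothing says that a number marks a shared animal or day. The differences between replicate 1 and 2 in the groups correlated at 0.10 over probe sets. With the replicate number as a block 1943 probe sets, 20 listed probe sets, 12 listed genes and 20 companion genes were called, and all 8 listed genes kept their calls.

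Uncalled genes near 0 changed sign in 15 cases. Median centring turned Bgn to -0.081 and Vcan to -0.063. Quantile normalization turned Vcan to -0.028, and an offset at the 5th percentile to -0.022. Leaving out 1 array gave from -0.65 to 0.33 for Postn, from -0.35 to 0.85 for Thbs2, from -0.71 to 1.81 for Tnc, from -0.27 to 0.036 for Dcn, from -0.22 to 0.23 for Bgn, from -0.81 to 0.86 for Vcan and from -0.035 to 0.56 for Pdgfrb. Scaling moved the median of all genes from 0.025 to -0.062 at most.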
